A study of Homo sapiens with 12 samples.

Results

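The respiratory chain and ATP synthase of mitochondria are built from subunits encoded in both the nucleus and mitochondrial DNA, and the mRNAs of both sets were measured here in BT474 cells, an established breast cancer line with HER2 amplification. Members were chosen by gene symbol alone. The symbols took in the NDUFA, NDUFB, NDUFC, NDUFS and NDUFV genes of complex I, SDHA to SDHD of complex II, the UQCR genes and CYC1 of complex III, the COX4 to COX8 genes of complex IV, the ATP5F, ATP5M and ATP5P genes of complex V, and the mitochondrially encoded mRNAs. Of 27814 named genes in the table, 108 matched, of which 95 were nuclear and 13 mitochondrial. The nuclear rows held 87 subunit genes, 2 pseudogenes, 2 readthrough genes, 2 antisense genes and 2 divergent transcripts. Complex II has no mitochondrially encoded subunit.

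There were 12 libraries in 4 groups of 3. The groups were BT474 cells labelled BRD8 knockout (KO) in 200 nM neratinib for 4 h, parental cells in the same drug, KO-labelled cells in DMSO, the solvent, and parental cells in DMSO. BRD8 carries bromodomains and belongs to the chromatin-modifying complex of EP400 and TIP60. Neratinib binds the kinase domain of HER2 and its ErbB relatives covalently and blocks it. The labels do not say whether the KO-labelled cells were 1 clone or a pool, where the gene was cut, or whether replicates came from separate cultures. All p-values therefore reflect the spread among the libraries at hand, which may be technical.

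Complex I passes electrons from NADH to ubiquinone, complex II from succinate to ubiquinone, complex III from ubiquinol to cytochrome c, and complex IV from cytochrome c to oxygen. Complexes I, III and IV pump protons, and complex V, the ATP synthase, uses the gradient to make ATP. The nuclear subunits are translated in the cytosol and imported, whereas the mitochondrial mRNAs are cut from long transcripts of both strands of mitochondrial DNA and translated inside the organelle, so each complex other than II needs the products of 2 genomes.

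Library depth, as counts assigned to named genes, was 32471198 to 44726160. BRD8 mRNA, measured first as a check of the label, was at 156.1 ± 2.44 CPM, the library-scaled count used for all levels, in KO-labelled and 235.6 ± 5.23 CPM in parental cells in neratinib, against 67.4 ± 1.39 and 64.1 ± 0.706 CPM in DMSO (SD, n = 3 each). It was thus not lower in the KO-labelled cells in DMSO, and whether the protein is lost cannot be read from these counts. The luminal markers EPCAM, KRT8, KRT18, KRT19, GATA3 and FOXA1 were present in every group. PTPRC, CD3E, COL1A2, DCN, PECAM1 and KRT14 were each under 0.2 CPM on average in every group, while COL1A1 and VWF were present. The list of markers also held CD68, LYZ, KRT5, ESR1, PGR, ERBB2 and GRB7, whose levels are not given here. The markers given thus do not show that immune or basal cells were absent. In bulk samples, fewer cells of a kind and less RNA per cell cannot be told apart.

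Of the 95 nuclear rows, 87 passed the filter on low counts, 81 of them subunit genes, and all 13 mitochondrial mRNAs passed. The 6 subunit genes left untested were COX4I2, COX6A2, COX6B2, COX7A1, COX7B2 and COX8C, the tissue-restricted forms of complex IV subunits, and the 2 readthrough rows held no count. The deposited table thus held mRNA of the ubiquitous complex IV isoforms almost alone: COX4I1 was at 298.2 ± 1.64 CPM in KO-labelled and 268.4 ± 1.84 CPM in parental cells in DMSO, whereas no library held more than 0.0307 CPM of COX4I2, the form induced by low oxygen in lung. COX6A2, the heart and muscle form, and COX7B2 had 0 counts in all 12 libraries.

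Per kilobase of transcript, mitochondrial mRNAs were far more abundant than nuclear ones. Their median level was 2395 CPM per kb in KO-labelled and 2055 CPM per kb in parental cells in neratinib, and 1425 and 1396 CPM per kb in the same order of genotypes in DMSO. The median of the 81 nuclear subunit genes was 63.7, 63.6, 73.7 and 76.8 CPM per kb in the same order of groups. The length of a nuclear gene was that of its longest transcript marked as principal, such as 13566 bases for SDHC. Nuclear values per kb are therefore too low where shorter transcripts prevail. COX1, the catalytic subunit of complex IV, and COX2, which takes electrons from cytochrome c, were the most abundant per length in each group, with 4529 and 4558 CPM per kb in KO-labelled cells in DMSO and 4570 and 5444 CPM per kb in parental cells in DMSO. ND1, a membrane subunit of complex I that lines the ubiquinone site, stood lowest, at 563.4 and 583.5 CPM per kb in the same groups.

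Neratinib was compared with DMSO within each genotype to ask what HER2 kinase inhibition does to each set. All 13 mitochondrial mRNAs rose in both genotypes, by 0.61 to 0.83 on the log2 scale in KO-labelled cells (median 0.75) and by 0.42 to 0.69 in parental cells (median 0.56). Calls are at an adjusted p below 0.05 in the quasi-likelihood test of edgeR, adjusted by Benjamini-Hochberg over 16208 genes. Of all genes tested, 38.9% were called higher with neratinib in KO-labelled cells and 41.8% in parental cells, and the median log2 fold changes of all genes were 0.02 and 0.04. All 13 also passed a second rule, called with a log2 change of at least 0.32 in size, which 28% and 31.4% of all genes passed upward.

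COX1 stood at 11960, 11450 and 11440 CPM in KO-labelled libraries in neratinib, against 6606, 6770 and 7577 CPM in DMSO. In parental libraries it stood at 9590, 10780 and 9634 CPM in neratinib, against 7509, 6949 and 6683 CPM in DMSO. In each genotype every neratinib library was above every DMSO library, and the log2 fold changes were 0.73 (SE 0.0347, adjusted p = 4.46e-23) and 0.51 (SE 0.0346, adjusted p = 1.93e-17). ND4, a proton-pumping subunit of complex I, had the largest change in KO-labelled cells: 4645, 4346 and 4387 CPM in neratinib, against 2270, 2373 and 2900 CPM in DMSO, a log2 fold change of 0.83 (SE 0.0552, adjusted p = 9.41e-18). ATP8, a small subunit of complex V, had the largest in parental cells, with 289.6, 396.9 and 301.0 CPM in neratinib, against 229.3, 194.8 and 185.1 CPM in DMSO, a log2 fold change of 0.69 (SE 0.0718, adjusted p = 9.08e-12). Again no neratinib library of either gene lay within the range of its DMSO libraries.

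The smallest rises were those of ND5 and ND6. ND5, a pumping subunit of complex I, stood at 2385, 2271 and 2254 CPM in KO-labelled libraries in neratinib, against 1369, 1401 and 1699 CPM in DMSO, and at 1682, 2048 and 1677 CPM in parental libraries in neratinib, against 1473, 1324 and 1253 CPM in DMSO. ND6, a membrane subunit of complex I and the only mRNA of its strand, rose by 0.61 (SE 0.0724, adjusted p = 4.22e-10) in KO-labelled and 0.42 (SE 0.0733, adjusted p = 1.59e-06) in parental cells. The library kit does not mark strand, so reads of ND6 (MT:14149-14673, minus strand, GENCODE 29 on GRCh38) and of antisense RNA from the other strand cannot be told apart. CYTB, the cytochrome b of complex III, rose by 0.65 (SE 0.041, adjusted p = 1.47e-18) and 0.48 (SE 0.041, adjusted p = 2.56e-14). ATP8 and ATP6 overlap on mitochondrial DNA, from 8527 to 8572, as do ND4L and ND4, so reads in the overlap can count for either.

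The 13 mRNAs moved together between libraries of a group and are not 13 separate observations. All 13 were highest in replicate 2 of the parental neratinib group, in replicate 3 of the KO-labelled DMSO group and in replicate 1 of the parental DMSO group, and 12 were highest in replicate 1 of the KO-labelled neratinib group. Leaving out any single library kept all 13 called higher with neratinib in both genotypes.

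**Figure D1:**
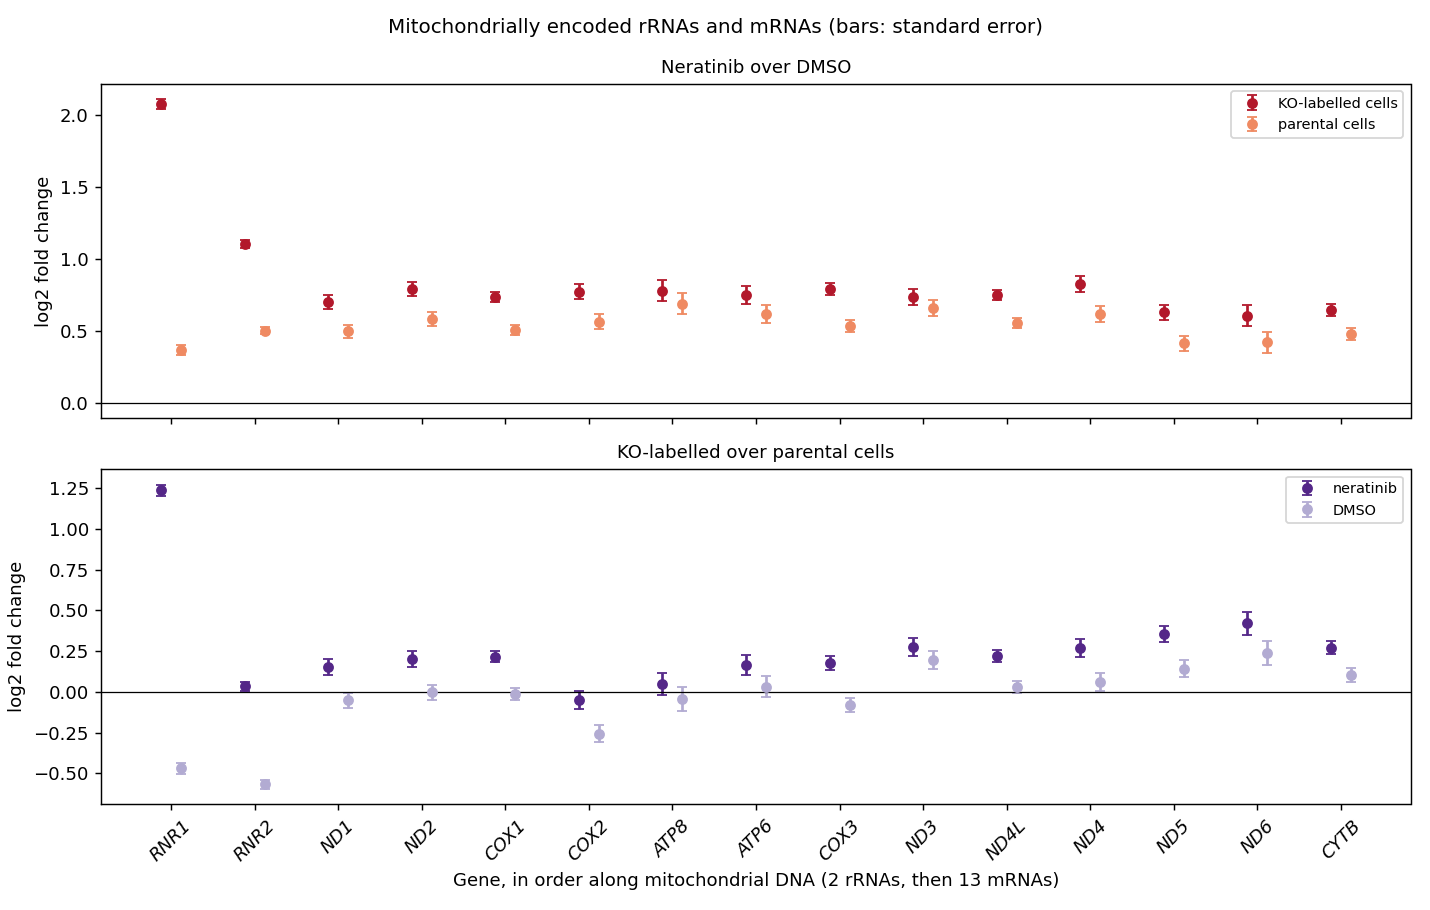
Log2 fold changes with standard errors for the mitochondrially encoded rRNAs (RNR1, RNR2) and 13 mRNAs, in gene order along mitochondrial DNA, for neratinib over DMSO (top) and KO-labelled over parental cells (bottom). All 13 mRNAs lie above 0 in both genotypes in the top panel, and RNR1 stands apart at 2.08 in KO-labelled cells, against 0.37 in parental cells.

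Most nuclear members moved the other way. Of 87 tested, 4 rose and 65 fell with neratinib in KO-labelled cells, with a median log2 fold change of -0.21, while in parental cells 10 rose and 61 fell, with a median of -0.21. Among all genes 38.4% and 38.9% were called lower in these comparisons. The rises were the less stable count: with genes under a mean of 5 CPM left out, 11 rose in KO-labelled and 18 in parental cells, and 7 rose in KO-labelled cells without replicate 1, or replicate 3, of the parental neratinib group. By the second rule, 0 nuclear members rose and 20 fell in KO-labelled cells, against 25.6% of all genes falling, and 3 rose and 24 fell in parental cells, against 27.5%. The nuclear decrease was thus frequent but small, and by the second rule its share (20 and 24 of 87) was near the background. Of the 81 subunit genes, 56 fell in both genotypes and 3 rose in both, where 32.2% of all genes fell in both and 32.9% rose in both. NDUFA10, an accessory subunit of complex I, fell by 0.06 in KO-labelled cells (adjusted p = 0.00547) and rose by 0.05 in parental cells (adjusted p = 0.0167). The 2 genotypes were measured against separate DMSO groups. Of the 6 tested rows that are not subunit genes, NDUFA6-DT, a divergent transcript, was lower with neratinib in both genotypes (-0.69 and -0.76, adjusted p = 0.000145 and 2.19e-05), as was ATP5F1EP2 (-0.28 and -0.45, adjusted p = 6.64e-05 and 1.28e-10). NDUFV1-DT, at under 0.5 CPM in every group, was at -0.31 in KO-labelled cells (adjusted p = 0.589) and rose by 1.64 in parental cells (adjusted p = 0.000335).

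Complex V fell most uniformly: 17 of its 18 nuclear genes were called lower in each genotype, with medians of -0.25 in KO-labelled and -0.27 in parental cells and no member called higher. Of all genes 38.4% were called lower in KO-labelled and 38.9% in parental cells. By the second rule 5 of the 18 fell in each genotype, against 25.6% and 27.5% of all genes. Complex I had 26 lower and 1 higher of 36 in KO-labelled cells and 24 lower and 6 higher in parental cells, complex III 8 lower and 2 higher of 10 and 8 lower and 1 higher, and complex IV 10 lower and 0 higher of 12 tested and 9 lower and 1 higher. Of the 4 complex II genes 2 fell and 1 rose in KO-labelled cells, while 1 fell and 1 rose in parental cells. Complex I genes ranged from -0.86 to 0.25 in KO-labelled and -0.89 to 0.44 in parental cells.

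**Figure D2:**
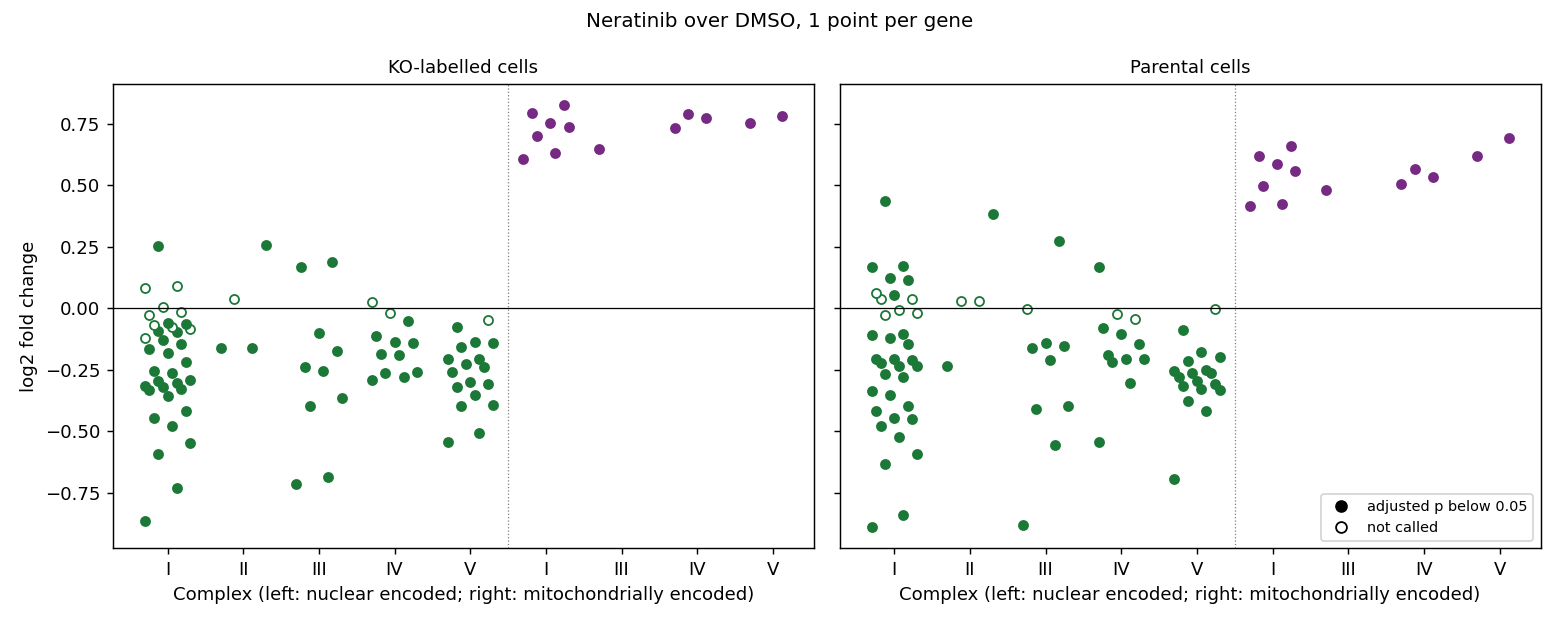
Log2 fold change of neratinib over DMSO for the tested nuclear subunit genes other than NDUFA4L2 (green) and 13 mitochondrial mRNAs (purple) by complex, in KO-labelled cells (left panel) and parental cells (right panel); filled points have an adjusted p below 0.05. The mitochondrial mRNAs lie between 0.42 and 0.83, above all the filled nuclear points except NDUFA5 in parental cells, at 0.44.

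The counts of the 2 genomes were also set against each other within a library, a ratio that library scaling cannot alter. In neratinib, mitochondrial mRNA made up 3.90% ± 0.108 of KO-labelled and 3.45% ± 0.331 of parental counts, against 2.24% ± 0.226 and 2.25% ± 0.159 in DMSO (SD, n = 3 each). Nuclear members took 0.923% ± 0.00537 and 0.978% ± 0.0201 in neratinib, against 1.02% ± 0.00866 and 1.06% ± 0.0163 in DMSO. The ratio of mitochondrial to nuclear counts was therefore 4.22 ± 0.137 in KO-labelled and 3.53 ± 0.415 in parental cells in neratinib, against 2.20 ± 0.241 and 2.12 ± 0.179 in DMSO. It was 1.92-fold higher with neratinib in KO-labelled and 1.66-fold higher in parental cells, and neratinib and DMSO libraries did not overlap in either genotype. A ratio over members gets no p.

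Between genotypes the ratio was 1.19-fold higher in KO-labelled cells in neratinib, where KO-labelled libraries ran from 4.11 to 4.37 and parental libraries from 3.29 to 4.01, and 1.03-fold higher in DMSO, where the ranges of 2.02 to 2.47 and 1.98 to 2.32 overlapped. The highest parental neratinib value was that of replicate 2. Within complexes, neratinib raised the ratio by 1.95-fold in KO-labelled and 1.70-fold in parental cells for complex I, by 1.82-fold and 1.62-fold for complex III, by 1.89-fold and 1.61-fold for complex IV, and by 2.01-fold and 1.85-fold for complex V. The complex V ratio was 1.08 ± 0.0538 in KO-labelled and 0.846 ± 0.144 in parental cells in neratinib, and 0.539 ± 0.0806 and 0.458 ± 0.0511 in DMSO. The complex IV ratio was the exception to the order of genotypes in DMSO, with 5.35 ± 0.487 in KO-labelled and 5.97 ± 0.499 in parental cells, ranges that overlapped.

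**Figure D3:**
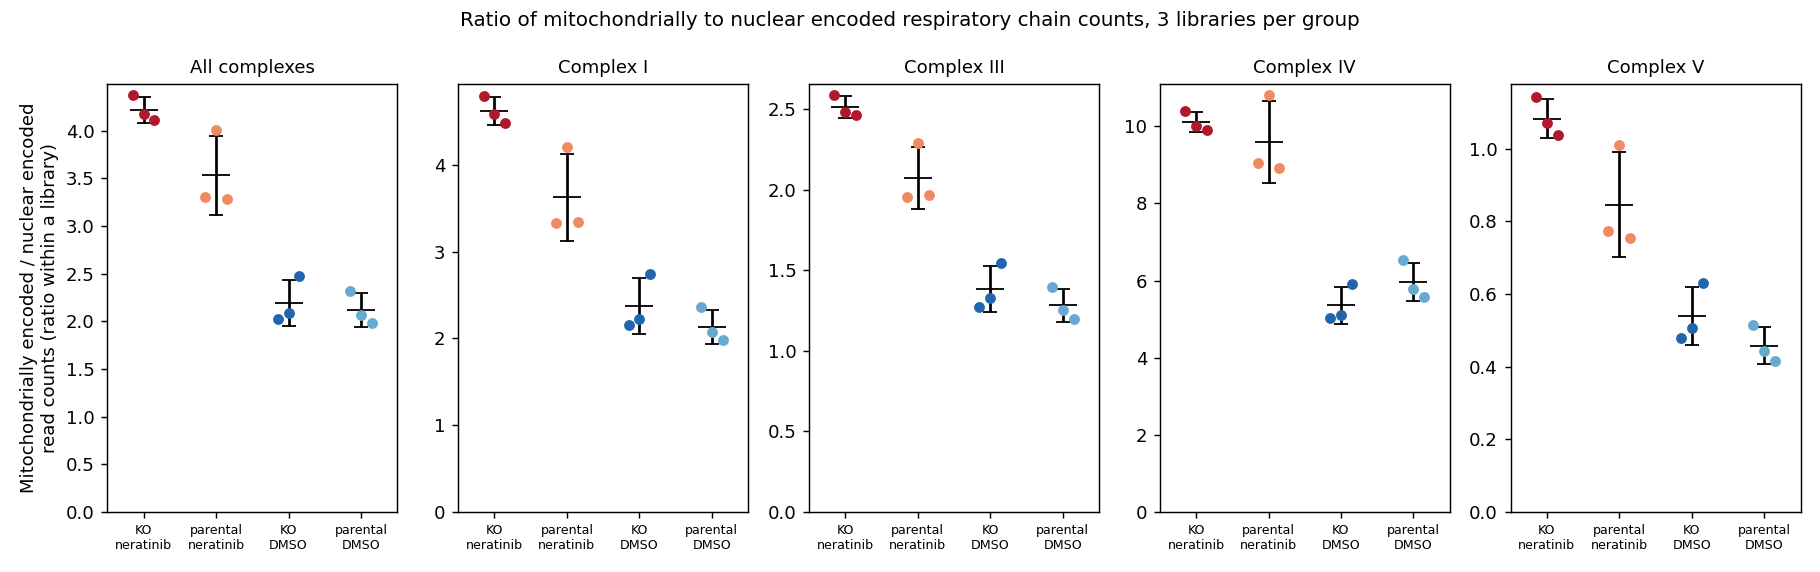
Ratio of mitochondrially to nuclear encoded counts within each library, over all complexes and for complexes I, III, IV and V, on axes from 0. Points are the 3 libraries of a group and bars the mean and SD. Over all complexes the neratinib groups average 4.22 (KO-labelled) and 3.53 (parental), above the DMSO groups at 2.20 and 2.12.

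The largest nuclear falls were in complexes I and III. NDUFS6, an accessory subunit of the NADH-oxidising arm of complex I, stood at 53.9, 55.5 and 56.3 CPM in KO-labelled libraries in neratinib, against 99.95, 100.1 and 101.4 CPM in DMSO. In parental libraries it stood at 57.5, 57.8 and 57.3 CPM in neratinib, against 100.2, 105.7 and 102.9 CPM in DMSO. It was lower in every neratinib library of both genotypes, with log2 fold changes of -0.86 (SE 0.0273, adjusted p = 1.28e-29) and -0.84 (SE 0.0269, adjusted p = 1.52e-29). NDUFS8, a core subunit of complex I that carries iron-sulphur clusters, stood at 93.3, 89.0 and 93.8 CPM in KO-labelled libraries in neratinib, against 152.8, 154.5 and 149.5 CPM in DMSO, and at 100.9, 95.98 and 98.9 CPM in parental libraries in neratinib, against 177.1, 187.7 and 183.7 CPM in DMSO. The groups lay far apart, and the log2 fold changes were -0.73 (SE 0.0252, adjusted p = 3.81e-28) and -0.89 (SE 0.0244, adjusted p = 4.57e-32).

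CYC1, the cytochrome c1 that hands electrons to cytochrome c, stood at 114.3, 118.1 and 119.1 CPM in KO-labelled libraries in neratinib, against 189.8, 188.4 and 186.8 CPM in DMSO, and at 95.2, 91.3 and 94.0 CPM in parental libraries in neratinib, against 172.9, 175.2 and 169.0 CPM in DMSO. Its fall was -0.68 (SE 0.0221, adjusted p = 2.88e-29) in KO-labelled and -0.88 (SE 0.0228, adjusted p = 4.51e-33) in parental cells. UQCRFS1, the Rieske iron-sulphur protein of complex III, fell by 0.71 (SE 0.027, adjusted p = 9.88e-27) in KO-labelled and by 0.56 (SE 0.027, adjusted p = 8.95e-23) in parental cells. Both electron-carrying nuclear subunits of complex III thus fell, while the third electron carrier of the complex, the mitochondrially encoded CYTB, rose. The accessory complex I subunits NDUFA6, NDUFB4 and NDUFB10 fell by 0.59, 0.42 and 0.55 in KO-labelled cells and by 0.63, 0.59 and 0.52 in parental cells.

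ATP5MC1, ATP5MC2 and ATP5MC3 encode the same mature subunit c, which forms the rotor ring of the ATP synthase, with different targeting sequences. ATP5MC3 stood at 141.0, 138.7 and 141.0 CPM in KO-labelled libraries in neratinib, against 204.8, 200.4 and 207.1 CPM in DMSO, and at 122.0, 120.8 and 118.7 CPM in parental libraries in neratinib, against 194.6, 197.3 and 193.6 CPM in DMSO. Its log2 fold changes were -0.54 (SE 0.0206, adjusted p = 1.32e-26) and -0.70 (SE 0.0209, adjusted p = 1.36e-30). The other two moved less, with ATP5MC1 at -0.14 (adjusted p = 5.2e-06) and -0.28 (adjusted p = 2.4e-15) and ATP5MC2 at -0.14 (adjusted p = 4.95e-06) and -0.09 (adjusted p = 0.00155), the last of which was no longer called when genes under a mean of 5 CPM were left out (adjusted p = 0.32).

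Few nuclear subunit genes rose. NDUFA5, an accessory subunit of complex I, stood at 81.3, 83.6 and 80.4 CPM in KO-labelled libraries in neratinib, against 69.8, 70.0 and 65.9 CPM in DMSO, and at 92.5, 94.3 and 95.1 CPM in parental libraries in neratinib, against 67.01, 72.8 and 68.4 CPM in DMSO. It rose by 0.25 (SE 0.0297, adjusted p = 3.02e-10) and 0.44 (SE 0.029, adjusted p = 6.23e-18), with no overlap between treatments. SDHD, which anchors complex II in the membrane, stood at 71.6, 71.2 and 68.3 CPM in KO-labelled libraries in neratinib, against 59.9, 58.6 and 58.1 CPM in DMSO, and at 96.7, 92.6 and 95.1 CPM in parental libraries in neratinib, against 70.1, 75.0 and 73.4 CPM in DMSO. Its rise was 0.26 (SE 0.0299, adjusted p = 2.25e-10) and 0.38 (SE 0.0278, adjusted p = 1.42e-16). UQCRB, which binds ubiquinone in complex III, rose by 0.19 and 0.27 (adjusted p = 4.17e-11 and 2.08e-16); it shares near-identical sequence with the pseudogene UQCRBP1, so its reads may be split. UQCRC2, a core subunit of complex III, rose by 0.17 in KO-labelled cells (adjusted p = 9.87e-08), and NDUFA7, NDUFA2 and COX7A2L rose by 0.17 each in parental cells (adjusted p = 0.000251, 2.73e-05 and 1.32e-05).

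The other 3 complex II genes differed from SDHD. SDHB, its iron-sulphur subunit, fell by 0.16 in KO-labelled and by 0.24 in parental cells (adjusted p = 7.51e-06 and 1.02e-09). SDHC, the second membrane anchor, fell by 0.16 in KO-labelled cells (adjusted p = 3.33e-10) and was at 0.03 in parental cells (adjusted p = 0.18). SDHA, the flavoprotein that oxidises succinate, was at 0.04 and 0.03 (adjusted p = 0.0533 and 0.138), and was called higher in both genotypes when genes under a mean of 5 CPM were left out before scaling.

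**Figure D4:**
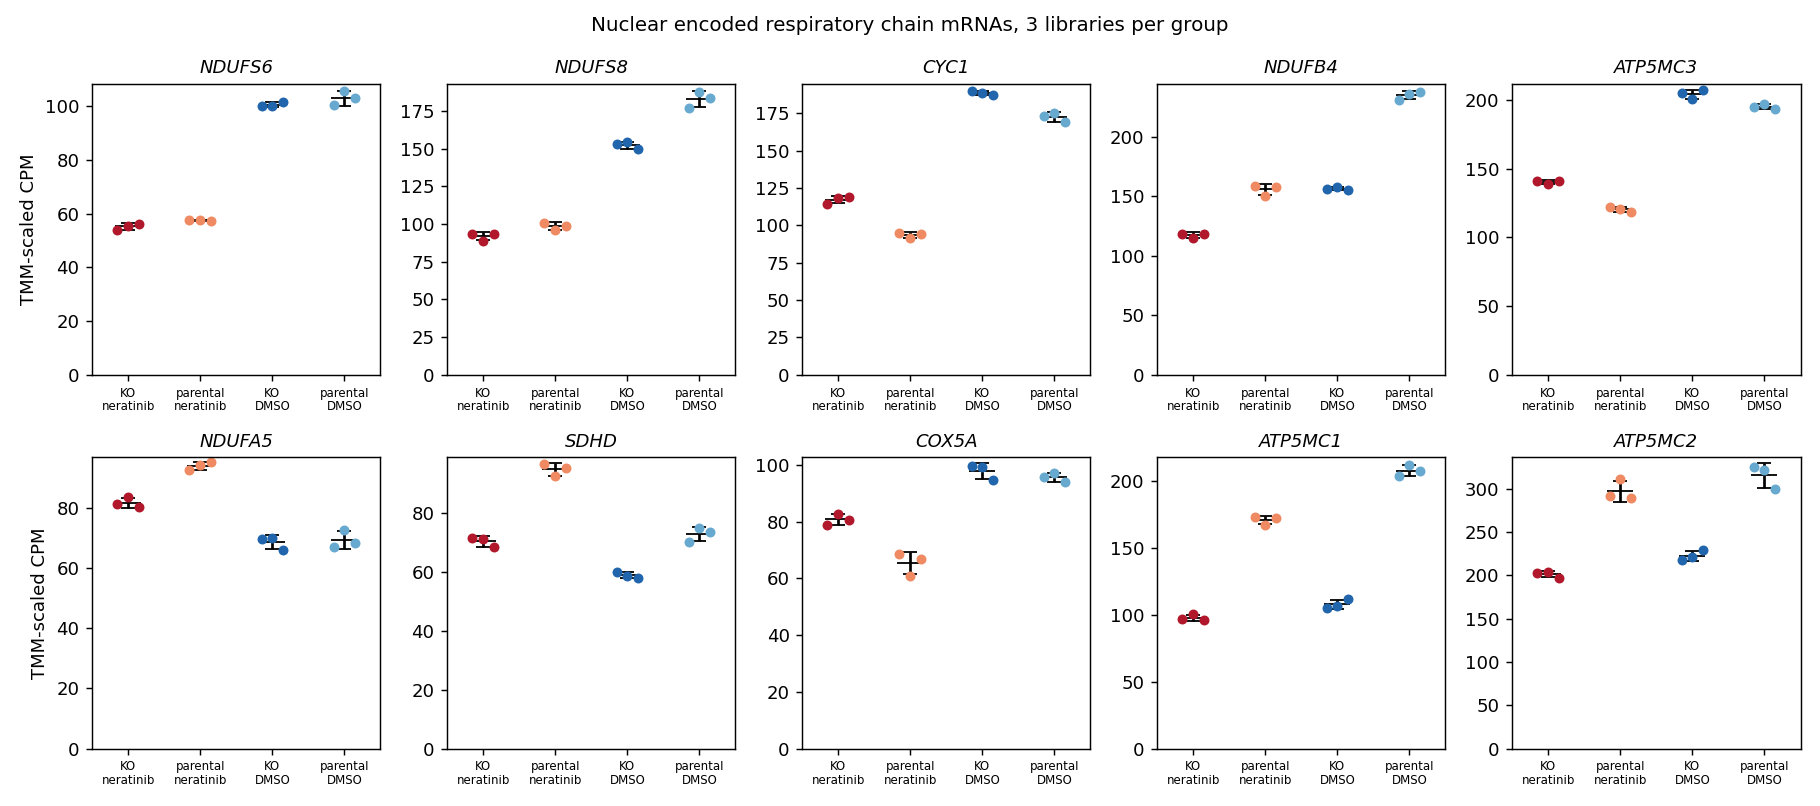
TMM-scaled CPM of 10 nuclear encoded subunit genes in each library, on axes from 0, with the mean and SD of 3 libraries per group. NDUFS6, NDUFS8, CYC1, NDUFB4 and ATP5MC3 are lower with neratinib, NDUFA5 and SDHD higher, COX5A lower in both genotypes and more so in parental cells, and ATP5MC1 and ATP5MC2 lower in KO-labelled cells.

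Promoters of these genes are shown because nuclear respiratory genes are known for sharing short promoter motifs, such as those of NRF1, of the ETS family member GABP and of YY1. In the RefSeq promoter table of GRCh38.p14, which spans 250 bases before to 50 after each start, 70 of the 87 subunit genes had an entry. The palindromic NRF1 motif with 1 free base was in 24.3% of the 70, against 8.57% of 15842 promoters of protein-coding genes, the YY1 motif AAGATGGC in 15.7%, against 3.91%, and the ETS motif CCGGAAGT in 14.3%, against 6.19%. The GC box GGGCGG was equally frequent, 58.6% against 58.5%. The other motifs searched were CACGTG (E-box), at 10.0% against 8.88%, TGACGTCA (CRE), at 7.14% against 2.59%, and TCAAGGTCA (ERR), at 1.43% against 0.24%. Both strands were searched, no motif is contained in another, and a match is a description of letters, not a bound site.
Capitals below mark matches on either strand to any of these motifs other than the GC box. NDUFB4 is shown as a gene that fell in both genotypes with 3 NRF1 matches, NDUFA6 as another with a YY1 match, and SDHD as one that rose, with NRF1, ETS and ERR matches.
NDUFB4 (chr3:120596086-120596385, plus strand): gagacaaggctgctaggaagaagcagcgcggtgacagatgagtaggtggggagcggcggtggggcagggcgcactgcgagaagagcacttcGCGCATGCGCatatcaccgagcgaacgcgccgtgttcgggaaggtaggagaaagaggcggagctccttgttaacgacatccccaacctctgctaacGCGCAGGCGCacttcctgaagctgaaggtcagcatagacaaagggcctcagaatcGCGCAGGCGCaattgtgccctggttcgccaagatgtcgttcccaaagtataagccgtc
NDUFA6 (chr22:42090723-42091022, minus strand): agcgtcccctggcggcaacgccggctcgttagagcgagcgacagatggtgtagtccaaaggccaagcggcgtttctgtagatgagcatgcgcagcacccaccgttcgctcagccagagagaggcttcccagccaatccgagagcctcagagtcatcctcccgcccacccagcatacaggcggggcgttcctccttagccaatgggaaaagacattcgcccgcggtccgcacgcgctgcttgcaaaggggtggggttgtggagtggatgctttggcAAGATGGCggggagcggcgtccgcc
SDHD (chr11:112086623-112086922, plus strand): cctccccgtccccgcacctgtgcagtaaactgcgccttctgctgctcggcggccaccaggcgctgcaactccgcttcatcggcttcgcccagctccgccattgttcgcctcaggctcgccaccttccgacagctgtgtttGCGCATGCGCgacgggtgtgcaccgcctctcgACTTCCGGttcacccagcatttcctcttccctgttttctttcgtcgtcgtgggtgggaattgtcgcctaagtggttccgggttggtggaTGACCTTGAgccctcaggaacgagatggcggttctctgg
Genes with and without a match were found among those that rose and those that fell: the NRF1 motif was in 6 of the 14 promoters of genes lower by the second rule with neratinib in both genotypes, and in 10 of the 52 promoters of the other tested subunit genes, a description with no test. The promoter of NDUFS8, the largest fall in parental cells, and that of NDUFA5, the largest rise there, held none of the motifs searched.

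KO-labelled cells were compared with parental cells within each treatment. In DMSO 18 nuclear members were higher and 44 lower of 87, with a median log2 fold change of -0.07, and in neratinib 18 were higher and 44 lower, with a median of -0.08. Among all genes 36% were called higher and 35.6% lower in DMSO, and 34.7% higher and 36.9% lower in neratinib, with medians of 0.00 and -0.02. By the second rule, 2 members were higher and 14 lower in DMSO, against 22.1% and 18.8% of all genes, and 4 were higher and 17 lower in neratinib, against 21.2% and 19.3%. Of the 81 subunit genes, 36 were lower and 14 higher in both treatments, where 25.3% of all genes were lower and 25.5% higher in both. UQCRC2 and NDUFA13, both of which were lower in KO-labelled cells in DMSO and higher in neratinib, differed by less than 0.1 on the log2 scale in each.

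The largest share of lower genes was in complex V. Of its 18 genes, 13 were lower and 1 higher in KO-labelled cells in DMSO (median -0.16), and 14 lower and 1 higher in neratinib (median -0.17). Of all genes 35.6% were lower in DMSO and 36.9% in neratinib. By the second rule 7 of the 18 were lower in DMSO, against 18.8% of all genes, and 6 in neratinib, against 19.3%. ATP5MC1 had the largest difference of any nuclear subunit gene, with 97.1, 100.4 and 96.0 CPM in KO-labelled and 173.4, 167.5 and 172.1 CPM in parental libraries in neratinib, and 105.1, 106.7 and 111.5 CPM in KO-labelled and 203.7, 211.9 and 207.2 CPM in parental libraries in DMSO. The log2 fold change was -0.81 (SE 0.024, adjusted p = 3.87e-30) in neratinib and -0.95 (SE 0.0233, adjusted p = 2.54e-33) in DMSO. ATP5MC2 was lower as well, with 203.1, 203.8 and 197.0 CPM in KO-labelled and 291.7, 311.0 and 288.7 CPM in parental libraries in neratinib, and 217.3, 220.7 and 229.1 CPM in KO-labelled and 325.0, 321.9 and 299.2 CPM in parental libraries in DMSO. Its differences were -0.56 and -0.51 (adjusted p = 3.4e-23 and 8.15e-22). ATP5MC3, the third gene of subunit c, was instead higher in KO-labelled cells, by 0.22 in neratinib (adjusted p = 4.4e-12) and 0.06 in DMSO (adjusted p = 0.00405), the last of which was not called by DESeq2 (adjusted p = 0.0682).

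Further genes of the ATP synthase were lower as well, of which 4 are described first. Others were ATP5MK, at -0.20 in neratinib and -0.41 in DMSO, and ATP5PF, at -0.28 and -0.31. ATP5F1C, the central stalk subunit gamma, was lower in KO-labelled cells, at -0.35 in neratinib and -0.51 in DMSO (adjusted p = 9.67e-17 and 7.09e-23). ATP5F1E, the stalk subunit epsilon, was lower, at -0.60 and -0.58 (adjusted p = 2.89e-16 and 3.75e-17), and ATP5MG, subunit g of the membrane part, at -0.63 and -0.55 (adjusted p = 9.64e-24 and 2.48e-22). ATP5MGL, a close copy of ATP5MG, was lower, at -0.57 and -0.39 (adjusted p = 1.22e-06 and 6.64e-05). ATP5F1E shares sequence with the pseudogene ATP5F1EP2, which was lower, at -0.46 and -0.64, and ATP5MG with ATP5MGL, so their reads may be split between the copies. The catalytic subunits alpha and beta, ATP5F1A and ATP5F1B, differed less, by -0.17 and -0.10 in neratinib and by -0.18 and -0.06 in DMSO.

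Outside complex V, NDUFB4 was lower in KO-labelled cells, at -0.41 in neratinib (adjusted p = 3.05e-20) and -0.59 in DMSO (adjusted p = 6.69e-27), and NDUFC1, an accessory complex I subunit, at -0.50 and -0.48 (adjusted p = 8.01e-15 and 6.99e-14). COX7A2L, which helps complexes III and IV associate into supercomplexes, was lower, at -0.48 and -0.34 (adjusted p = 1.19e-16 and 6.81e-12). Of the 2 near-identical hinge protein genes of complex III, UQCRH was lower, at -0.36 and -0.27, and UQCRHL, at -0.34 and -0.33, and reads may be split between them. SDHD was lower, at -0.43 and -0.31 (adjusted p = 7.23e-18 and 1.99e-12). SDHB was lower, at -0.09 in neratinib (adjusted p = 0.0116), which DESeq2 did not call (adjusted p = 0.0538), and at -0.16 in DMSO (adjusted p = 4.22e-06).

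Complex IV differed from complex V in the direction of its calls: 6 of the 12 tested nuclear genes were higher and 5 lower in DMSO, and 6 higher and 4 lower in neratinib. Of all genes 36% were higher and 35.6% lower in DMSO, and 34.7% and 36.9% in neratinib. By the second rule 2 of the 12 were higher and 1 lower in each treatment. By that rule 22.1% of all genes were higher and 18.8% lower in DMSO, and 21.2% and 19.3% in neratinib. COX5B, a structural subunit that binds zinc, stood at 163.6, 162.1 and 156.0 CPM in KO-labelled and 127.6, 123.8 and 127.1 CPM in parental libraries in neratinib, and at 178.9, 178.1 and 172.2 CPM in KO-labelled and 130.5, 133.5 and 136.3 CPM in parental libraries in DMSO. It was higher by 0.35 and 0.40 (adjusted p = 1.37e-17 and 3.83e-20), with no overlap. COX6A1, the ubiquitous form of subunit VIa, was higher by 0.38 and 0.36 (adjusted p = 4.12e-21 and 2.65e-20), and COX4I1, COX7A2 and COX6C were higher by 0.14 to 0.16 in neratinib and by 0.14 to 0.17 in DMSO. COX8A and COX7B were lower, at -0.23 and -0.14 in neratinib and -0.15 and -0.14 in DMSO. COX6B1 was at -0.04 in neratinib (adjusted p = 0.132) and -0.06 in DMSO (adjusted p = 0.0215), where the call was lost when genes under a mean of 5 CPM were left out (adjusted p = 0.165).

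Among the remaining complexes, UQCR11 and UQCRQ, small subunits of complex III, were higher in KO-labelled cells by 0.35 and 0.31 in neratinib and by 0.29 and 0.26 in DMSO. NDUFA10 was higher by 0.20 and 0.31 (adjusted p = 9.99e-12 and 5.55e-18), and SDHC by 0.09 and 0.28 (adjusted p = 4.02e-05 and 2.72e-17). SDHA was higher by 0.12 and 0.11 (adjusted p = 1.08e-07 and 5.14e-07). NDUFA4, now counted with complex IV, was at 0.03 in neratinib (adjusted p = 0.286) and 0.07 in DMSO (adjusted p = 0.0083), a call lost with DESeq2 (adjusted p = 0.087) and without replicate 1 or 3 of the parental DMSO group (adjusted p = 0.0799 and 0.0744). NDUFA4L2, its form induced by low oxygen, was at 0.445 ± 0.160 CPM in KO-labelled and 0.413 ± 0.118 CPM in parental cells in neratinib and did not pass the test in any comparison.

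**Figure D5:**
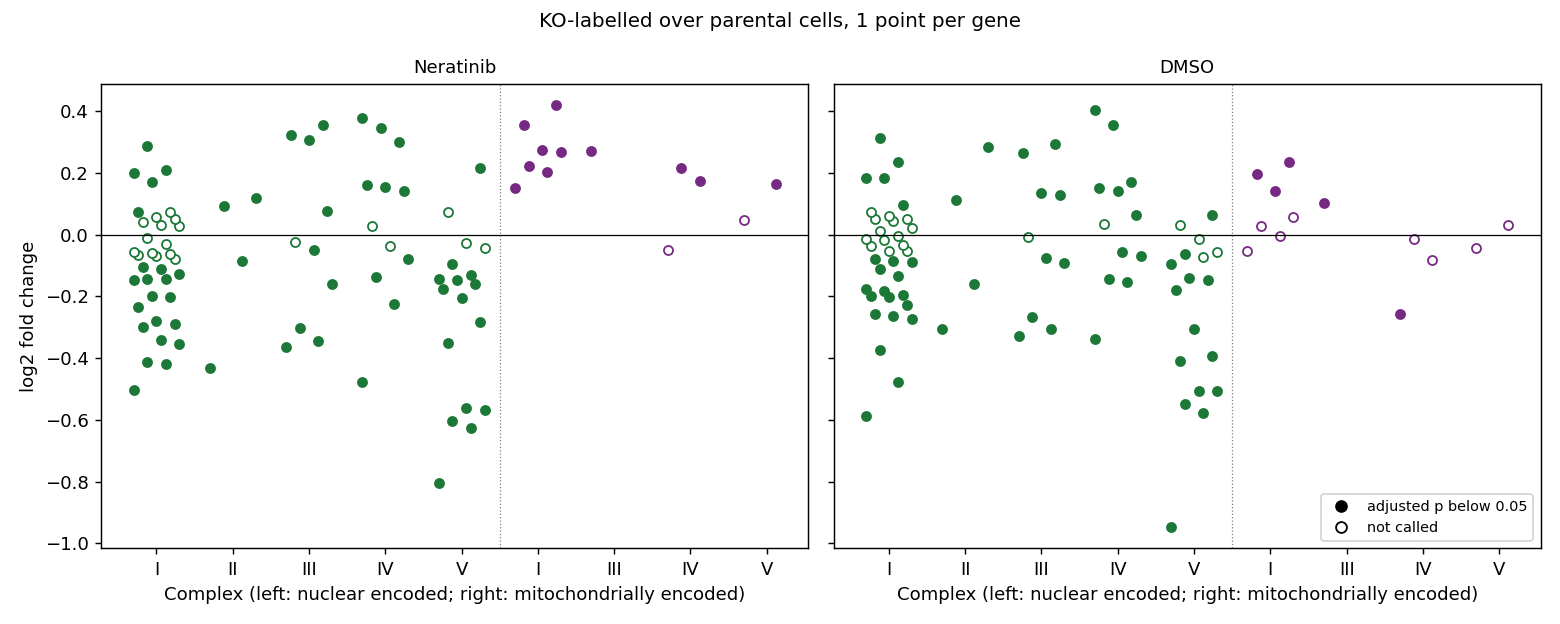
Log2 fold change of KO-labelled over parental cells for the tested nuclear subunit genes other than NDUFA4L2 (green) and 13 mitochondrial mRNAs (purple) by complex, in neratinib (left panel) and DMSO (right panel); filled points have an adjusted p below 0.05. Complex V holds the lowest point, ATP5MC1, at -0.81 in neratinib and -0.95 in DMSO, and most of its points lie below 0.

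The promoter of ATP5MC1 is shown as that of the gene with the largest genotype difference; its capitals mark a CRE and an E-box match.
ATP5MC1 (chr17:48892537-48892836, plus strand): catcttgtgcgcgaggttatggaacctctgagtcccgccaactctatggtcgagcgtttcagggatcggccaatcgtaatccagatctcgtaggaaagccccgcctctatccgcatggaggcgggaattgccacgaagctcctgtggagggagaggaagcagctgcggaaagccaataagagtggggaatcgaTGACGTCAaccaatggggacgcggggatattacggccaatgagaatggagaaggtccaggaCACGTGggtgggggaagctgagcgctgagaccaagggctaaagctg
MYC, which binds E-box sequences, stood at 1.22 CPM on average in KO-labelled and 8.40 CPM in parental cells in neratinib, and at 1.52 and 10.0 CPM in DMSO, with log2 fold changes of KO-labelled over parental cells of -2.78 and -2.72 (adjusted p = 7.99e-25 and 6.29e-26). Its part in the level of any member was not tested.

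Genomic neighbours of the members were also compared, a choice made after the values were seen. Among the 10 tested genes on each side of ATP5MC1 on chromosome 17, 15 of 20 were called higher in KO-labelled cells in DMSO and 1 lower, with a median log2 fold change of 0.48, against -0.95 for ATP5MC1 itself. Beside ATP5F1C and ATP5F1E the medians of the neighbours were -0.39 and -0.42, against -0.51 and -0.58 for the genes themselves. Beside SDHD the median was -0.36, with 13 of 20 lower. Beside NDUFB4, ATP5MG and ATP5MC2 the medians were 0.12, -0.12 and -0.09, against -0.59, -0.55 and -0.51 for the genes themselves. In neratinib the medians beside ATP5F1C and ATP5F1E were -0.50 and -0.32, against -0.35 and -0.60 for the genes. Over the 81 subunit genes, a gene's own change and the median of its neighbours had a Pearson correlation of 0.196 and a Spearman correlation of 0.279 in DMSO, given as a description over genes that share libraries. There 44 of the 81 had the sign of their neighbours. Between genotypes in neratinib the correlations were 0.341 and 0.325. For neratinib over DMSO they were 0.218 and 0.204 in KO-labelled and 0.247 and 0.237 in parental cells. Whether copy number differs between the KO-labelled and parental cells was not tested.

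The mitochondrial mRNAs differed less between genotypes than between treatments. In neratinib 34.7% of all genes were called higher in KO-labelled cells and 36.9% lower. Of the 13 mRNAs, 11 were called higher and 0 lower, with a median log2 fold change of 0.22. By the second rule 2 of the 13 were higher, against 21.2% of all genes. Among the called mRNAs, the libraries of the genotypes overlapped for ND1, ND2 and ATP6. ND6 had the largest difference, with 732.8, 669.1 and 634.5 CPM in KO-labelled and 457.3, 608.2 and 458.2 CPM in parental libraries, a log2 fold change of 0.42 (SE 0.0719, adjusted p = 1.62e-06), followed by ND5 at 0.35 (SE 0.0512, adjusted p = 5.48e-08). COX2 and ATP8 were at -0.05 and 0.05 (adjusted p = 0.404 and 0.547). DESeq2 called 6 of the 13 higher, and leaving out single libraries gave 10 to 12.

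In DMSO 4 mitochondrial mRNAs were called higher in KO-labelled cells (ND3, ND5, ND6 and CYTB, by 0.10 to 0.24) and COX2 lower (-0.26, adjusted p = 4.33e-05), with a median of 0.03. Of all genes 36% were called higher and 35.6% lower there. The libraries of the genotypes overlapped for all 13, COX2 included, at 2844, 2950 and 3558 CPM in KO-labelled and 4083, 3653 and 3435 CPM in parental libraries. These calls rest on single libraries: without replicate 3 of the KO-labelled DMSO group 0 were higher and 6 lower, without replicate 3 of the parental DMSO group 0 were higher and 3 lower, and without its replicate 2 there were 2 higher and 1 lower. Leaving out replicate 1, 2 or 3 of the parental neratinib group, which enters through the shared filter, scaling and spread, gave 2 lower. DESeq2 called 0 higher and 1 lower.

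Of the mitochondrial rRNAs, which are made from the same strand as most of the mRNAs, RNR1 differed between genotypes in both treatments and RNR2 in DMSO. The library kit selects polyadenylated RNA, so the values of these rRNAs, and those of the mitochondrial mRNAs, are for the RNA that this selection recovered. The ratio of mitochondrial to nuclear counts has the same limit. RNR1, the 12S rRNA, stood at 3640, 3940 and 4240 CPM in KO-labelled and 1650, 1670 and 1700 CPM in parental libraries in neratinib, and at 945, 916 and 945 CPM in KO-labelled and 1230, 1230 and 1420 CPM in parental libraries in DMSO. It was higher in KO-labelled cells by 1.24 in neratinib (SE 0.0348, adjusted p = 4.52e-31) and lower in DMSO, at -0.47 (SE 0.035, adjusted p = 5.74e-16). RNR2, the 16S rRNA, was at 8490 CPM on average in KO-labelled and 8287 CPM in parental cells in neratinib, and at 3941 and 5844 CPM in DMSO. Its genotype difference was 0.04 in neratinib (adjusted p = 0.243) and -0.57 in DMSO (adjusted p = 1.24e-22).

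Relative to rRNA, mitochondrial mRNA counts stood at 3.08 ± 0.153 in KO-labelled and 3.37 ± 0.187 in parental cells in neratinib, and at 4.67 ± 0.329 and 3.24 ± 0.227 in DMSO (SD, n = 3 each). With neratinib 38.9% of all genes were called higher in KO-labelled and 41.8% in parental cells. Of the 22 mitochondrial tRNAs, 20 were called higher with neratinib in KO-labelled and 15 in parental cells, and 0 lower in either. TRNF, which adjoins RNR1, rose most in KO-labelled cells, by 2.20 (adjusted p = 2.5e-18), and by 0.90 in parental cells (adjusted p = 1.36e-07). The MTRNR2L genes, nuclear copies of RNR2, moved in the direction of RNR2: 8 of 8 tested were higher with neratinib in KO-labelled cells and 6 in parental cells, so reads of mitochondrial and nuclear copies may be shared.

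The interaction asked whether the neratinib response differed between genotypes (KO-labelled minus parental). It was called higher for 14 and lower for 14 of 87 nuclear members, with a median of -0.02, against 21.5% higher and 24.6% lower of all genes. DESeq2 called 6 lower, 8 were lower without replicate 3 of the parental DMSO or of the parental neratinib group, and 9 without replicate 1 of the parental neratinib group. The sign of the median also turned, to 0.0051 with DESeq2 and to at most 0.015 without single libraries. The median of all genes was -0.023 in the main fit, -0.00081 with DESeq2 and -0.0018 without replicate 1 of the parental neratinib group. It was -0.0235 without replicate 1 of the parental DMSO group, where the sign of the nuclear median turned too. COX5A, a subunit of complex IV, had the largest positive value among genes with a mean of at least 5 CPM. It stood at 78.9, 82.8 and 80.8 CPM in KO-labelled libraries in neratinib, against 99.7, 99.3 and 94.6 CPM in DMSO, and at 68.5, 61.0 and 66.8 CPM in parental libraries in neratinib, against 95.9, 97.2 and 93.9 CPM in DMSO. It fell in both genotypes, less in KO-labelled cells (interaction 0.27, SE 0.0429, adjusted p = 1.47e-06). CYC1 (0.20), NDUFB4 (0.17) and ATP5MK (0.20), a membrane-part subunit of the ATP synthase, also fell less in KO-labelled cells or were not called there.

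In the other direction, the interaction was negative for SDHC (-0.19, adjusted p = 1.46e-07), NDUFA5 (-0.18, adjusted p = 0.000264) and NDUFA2 (-0.16, adjusted p = 0.00633). NDUFA2 was not called by DESeq2 (adjusted p = 0.0588) or without replicate 1 of the parental neratinib group (adjusted p = 0.107).

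The interaction was positive for all 13 mitochondrial mRNAs (0.08 to 0.26) and called for 9 of them, where 21.5% of all genes were called higher. The largest of the 13 were COX3 at 0.26 (SE 0.0594, adjusted p = 0.000381) and COX1 at 0.23 (SE 0.0489, adjusted p = 0.000131). DESeq2 called 1 of the 13, COX1, and leaving out single libraries gave 3 (without replicate 2 of the KO-labelled DMSO group), 4 (without replicate 1 of the parental DMSO group), 5 (without replicate 1 of the KO-labelled neratinib group) and up to 13. RNR1 (1.71, SE 0.0493, adjusted p = 2.91e-29) and RNR2 (0.60, SE 0.0382, adjusted p = 2.36e-17) had larger interactions.

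Genes that serve the chain without being members were counted from lists, to be read against the 38.9% of all genes that rose and 38.4% that fell with neratinib in KO-labelled cells and the 41.8% and 38.9% in parental cells. Cytochrome c itself (CYCS), the carrier between complexes III and IV, fell with neratinib, with mean levels of 118.7 CPM in KO-labelled cells in neratinib, against 232.1 CPM in DMSO, and 119.2 CPM in parental cells in neratinib, against 238.7 CPM in DMSO. Its log2 fold changes were -0.97 and -1.0 (adjusted p = 1.54e-31 and 2.28e-32). Among 48 tested assembly factors 11 rose and 27 fell in KO-labelled and 19 rose and 24 fell in parental cells, with UQCC2, which stabilises newly made cytochrome b, falling most, by 1.26 and 1.43. Among 78 mitochondrial ribosomal proteins, 12 rose and 51 fell in KO-labelled and 11 rose and 53 fell in parental cells, with MRPL12 falling most, by 0.97 and 1.59. Of 17 genes of the citric acid cycle and pyruvate dehydrogenase, 3 rose and 10 fell, and 5 rose and 11 fell.

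Of 16 genes for mitochondrial transcription and DNA maintenance, 7 rose and 6 fell with neratinib in KO-labelled and 9 rose and 7 fell in parental cells, in KO-labelled cells shares near those of all genes. TFAM, which packages and helps transcribe mitochondrial DNA, fell by 0.11 in both (adjusted p = 0.000431 and 0.000332), POLRMT, the mitochondrial RNA polymerase, fell by 0.23 and 0.35, and TFB2M, its initiation factor, rose by 0.56 and 0.67. POLG2, a subunit of the DNA polymerase, rose most, by 0.88 and 0.92. Of 19 genes for mitochondrial RNA processing and stability 6 rose and 10 fell in each genotype. REXO2, an exonuclease that clears very short RNAs, rose most, by 1.62 and 1.61, FASTKD5 fell most in KO-labelled cells, by 1.02, and PNPT1, of the mitochondrial RNA degradation complex, fell most in parental cells, by 0.80. Between genotypes, 34.7% of all genes were higher and 36.9% lower in KO-labelled cells in neratinib, and 36% and 35.6% in DMSO. Of the same list of 19 genes, 5 were higher and 8 lower in neratinib, and 4 higher and 10 lower in DMSO. REXO2 was the most reduced, at 58.1 CPM in KO-labelled and 103.1 CPM in parental cells in neratinib and 18.9 and 33.8 CPM in DMSO, log2 fold changes of -0.83 and -0.84 (adjusted p = 5.93e-28 and 1.43e-22). LRPPRC, the most raised, which stabilises mitochondrial mRNAs, was at 400.6 CPM in KO-labelled and 301.9 CPM in parental cells in neratinib, and at 347.9 and 274.7 CPM in DMSO, and was higher in KO-labelled cells by 0.41 and 0.34 (adjusted p = 4.64e-23 and 3.81e-20).

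Of 15 regulators of nuclear respiratory genes, 4 rose and 7 fell with neratinib in each genotype. ESRRG, an orphan nuclear receptor, rose most, to 16.5 CPM in KO-labelled cells, against 4.45 CPM in DMSO, and to 17.8 CPM in parental cells, against 1.87 CPM in DMSO, log2 fold changes of 1.89 and 3.25. PPRC1, a coactivator of the PGC-1 family, fell most in KO-labelled cells, by 1.33, and its relative PPARGC1B fell most in parental cells, by 1.89, whereas PPARGC1A rose by 0.85 and 1.03. ESRRA fell by 0.66 and 0.83 (adjusted p = 2.49e-24 and 2.38e-28). The part of any of these genes in the changes of the members was not tested.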

How the data were processed

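RNA of 12 BT474 libraries was measured by poly(A)-selected, unstranded RNA-seq with single reads of 50 bases, per the labels' protocols. The deposited values are raw counts per gene, which the authors made from reads checked with FastQC 0.11.7 and aligned with STAR 2.7.9 to GRCh38 (hg38), with edgeR 3.40.2 also named, per the submitters' processing notes. The counting program, annotation and strand setting are not given in the sources used here. Lines with no gene name (581) held 0.0877 to 0.124% of counts and were left out.

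Counts of all 12 libraries were fitted together in edgeR 4.0.16 (R 4.3.3) with TMM scaling, filterByExpr, 1 mean per group and the quasi-likelihood test. P-values were adjusted by Benjamini-Hochberg over 16208 genes, with 8 residual degrees of freedom and a common coefficient of biological variation of 1.86%. A gene was called at an adjusted p below 0.05. The script was tested on simulated counts. CPM are TMM-scaled, and lengths and positions come from GENCODE 29. Alternatives were DESeq2 1.42.0, other scalings and filters, a replicate block and leaving out each library. Library totals limit the precision of low counts.

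The members and lists were chosen with earlier results of these data known. Genes were named by rule: BRD8, the 13 mitochondrial mRNAs, complex II, isoform pairs, the 6 largest rises and falls per pairwise comparison and 4 each in the interaction among called nuclear subunit genes with a mean of at least 5 CPM, and the called extremes of each list. One gene that the rule names is not reported here. Other genes named were chosen after their values were seen.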

Additional observations from a re-analysis of the deposited data

Results flagged for a closer look

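The neratinib response differed between genotypes (KO-labelled minus parental, log2; edgeR's interaction test, adjusted p below 0.05) for the following genes. Among complex I genes the difference was positive for NDUFS8 (0.16) and NDUFB4 (0.17), and negative for NDUFA5 (-0.18), NDUFA2 (-0.16) and NDUFA10 (-0.12). In complex II it was negative for SDHC (-0.19) and SDHD (-0.13). In complex III it was positive for CYC1 (0.20) and UQCRC2 (0.17), and negative for UQCRFS1 (-0.16), UQCRH (-0.10) and UQCRB (-0.086). In complex IV it was positive for COX5A (0.27) and negative for COX7A2L (-0.14) and COX8A (-0.073). In complex V it was positive for ATP5MK (0.20), ATP5F1C (0.16), ATP5MC3 (0.15) and ATP5MC1 (0.14). DESeq2 did not call the differences of UQCRH (adjusted p = 0.179), COX8A (adjusted p = 0.166), COX7A2L (adjusted p = 0.112), SDHD (adjusted p = 0.0877) and NDUFA2 (adjusted p = 0.0588). DESeq2-style size factors also ended the calls of COX8A (adjusted p = 0.15) and UQCRH (adjusted p = 0.0993). Leaving out single libraries ended each of the 5 calls at least once.

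Among mitochondrially encoded mRNAs it was positive for COX3 (0.26), COX1 (0.23), ND5 (0.21), ND4 (0.21), COX2 (0.21), ND2 (0.21), ND1 (0.20), ND4L (0.19) and CYTB (0.17), of which DESeq2 called COX1 alone. It was positive for the rRNAs RNR1 (1.71) and RNR2 (0.60) and negative for BRD8 (-0.66).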

How the results depend on the processing

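Of 759 recomputed values of 43 counts, medians and ratios, 713 were classed as unchanged, uncalled sign changes included. A count was classed by its size relative to the count of the main fit, and a median or ratio by whether it stayed within the replicate spread. With DESeq2, 0 mitochondrial mRNAs were higher in KO-labelled cells in DMSO and 6 in neratinib, and the interaction was called higher for 1 of them and lower for 6 nuclear members. Its nuclear median was -0.24 for neratinib in parental cells and 0.0051 for the interaction, a reversed sign. DESeq2-style size factors gave nuclear medians of -0.23 for neratinib in parental cells and 0.0051 for the interaction, also reversed, and 2 mitochondrial mRNAs lower in KO-labelled cells in DMSO. With no filter the nuclear medians for neratinib were -0.25 in KO-labelled and -0.24 in parental cells, and 1 mitochondrial mRNA was lower in KO-labelled cells in neratinib and 3 in DMSO. With a mean of at least 5 CPM, 11 nuclear members rose with neratinib in KO-labelled and 18 in parental cells, with medians of -0.14 and -0.15, the KO medians were -0.054 in neratinib and -0.051 in DMSO, and COX6A1 reversed to 0.045 for neratinib in KO-labelled cells (adjusted p = 0.0299). The causes were not tested.

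Leaving out single libraries, the nuclear median ranged from -0.24 to -0.19 for neratinib in KO-labelled cells, -0.23 to -0.20 in parental cells, -0.12 to -0.077 for KO in neratinib, -0.097 to -0.059 for KO in DMSO, and -0.033 to 0.015 for the interaction. The interaction median was reversed without parental DMSO replicate 1 (0.0051) or 3 (0.0076), KO-labelled DMSO replicate 1 (0.0068), or parental neratinib replicate 1 (0.015) or 3 (0.015). Nuclear members higher with neratinib in KO-labelled cells numbered 4 to 7, the most without parental neratinib replicate 1, and 0 to 1 at a log2 change of at least 0.32, and those lower in the interaction 8 (without parental DMSO replicate 3) to 19. Mitochondrial mRNAs with a higher interaction numbered 3 to 13, and in KO-labelled cells in DMSO 0 to 4 were higher and 1 to 6 lower.

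Same-numbered libraries of different groups did not deviate together (correlations of -0.021 to 0.0413), so the numbers were not taken as pairs. With a replicate block, 13 mitochondrial mRNAs rose in both genotypes, and 64 nuclear members fell with neratinib in KO-labelled and 61 in parental cells; the block moved no count past 1.5 times. With 3 libraries a group, small differences among low counts are not detectable.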
